A study of Homo sapiens with 15 samples.

Results

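The 7 genes described here, VPS8, VPS11, VPS16, VPS18, VPS33A, VPS39 and VPS41, encode subunits of the HOPS and CORVET tethering complexes. They were taken as all introns whose gene name in the deposited tables, split at commas, is one of the 7. This gave 133 introns of 111143 listed for any clone, and 92 of 83066 listed for all 4 clones. RNA was polyA-selected from HCT116, a human colon cancer cell line. The 4 clones KO-1 to KO-4 are bktRNA1-deficient and were each set against wild-type HCT116 (WT), with 3 libraries per group from 3 independent experiments per the labels. The labels do not say what bktRNA1 is or how its loss was made, each clone is 1 isolate and the same 3 WT libraries stand in all 4 comparisons, so each p-value compares 1 isolate with 1 line.

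HOPS and CORVET share a core of VPS11, VPS16, VPS18 and VPS33A. CORVET adds VPS8 and TGFBRAP1 and tethers early endosomes through RAB5, whereas HOPS adds VPS39 and VPS41 and tethers late endosomes, autophagosomes and lysosomes through RAB7. VPS33A binds SNARE proteins and VPS16 holds it in the complex. An intron that is kept in a polyadenylated transcript usually brings a premature stop codon or keeps the transcript in the nucleus.

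The results turn on intron 13 of VPS16, counted along the transcript VPS16-202, and the exons around it are printed here. The intron lies at chr20:2862935-2863064 on the plus strand of GRCh38 (hg38), between coding exons 13 and 14 of VPS16. It is 130 bases long, which is not a multiple of 3, and no annotated exon lies inside it. Exon 14, printed in capitals, has only 36 bases. The sequences were read from GENCODE 29 transcripts, which show an intron's own bases only where another annotated transcript covers them. They cover the neighbouring intron 12 (chr20:2862711-2862806, 96 bases), whose first 8 and last 2 bases are in capitals, through the annotated retained-intron transcript VPS16-201. Intron 13 is not covered, so its splice sites were not read.
VPS16 exon 13, last 30 bases: tcacatcgggatcccgctcacctatagcca
VPS16 exon 14: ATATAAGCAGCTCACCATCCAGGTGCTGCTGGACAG
VPS16 exon 15, first 30 bases: gctcgtgttgcggagactttaccccctggc
VPS16 intron 12, first 30 bases: GTTGGCCTggatggccgggccggggagggt
VPS16 intron 12, last 40 bases: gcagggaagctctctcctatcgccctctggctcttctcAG

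In VPS11, 2 introns have unusual ends and are shown for that reason. Intron 1 of VPS11-208 (chr11:119068011-119069195, plus strand, 1185 bases, between coding exons) begins with AT and ends with AC. Its first 8 bases, ATATCCTT, are the 5′ splice site motif of U12-type introns, which a minor spliceosome removes. Its last 23 bases hold the U12-type branch site motif CCTTNAC, also in capitals. Only the strand of the gene was searched, with ATATCCTT or GTATCCTT as the 5′ motif, and the branch site motif was searched in the last 23 bases. The 5′ motif began 144 of the 28470 introns of the series whose first bases could be read (0.506%), and 1 of 22 readable introns of the 7 genes. Both motifs together were present in 28 of 16835 introns readable at both ends (0.166%), and in 1 of 14 of the 7 genes. The window of 23 bases is what could be read of this intron. Over the last 40 bases, which could not be read in full here, both motifs were present in 29 of 16580 introns and 0 of 13 of the 7 genes. Intron 6 of VPS11 (chr11:119073400-119073799, 400 bases, between coding exons) begins with GC, in capitals, as did 1.68% of the readable introns, and ends with AG.
VPS11 intron 1, first 30 bases: ATATCCTTcgtttggagctgtcttttccct
VPS11 intron 1, last bases: gaggctCCTTGACtaccctgcac
VPS11 intron 6, first 30 bases: GCaaggccaccaggctcgcagagctggcca
VPS11 intron 6, last 40 bases: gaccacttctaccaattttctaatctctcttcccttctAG

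VPS16 intron 13 was kept more often in KO-1 than in WT. Retained reads, which cross an exon-intron boundary, numbered 34, 20 and 33 in the 3 KO-1 libraries, against 29, 10 and 15 in the 3 WT libraries. Spliced reads, which join exons 13 and 14, numbered 42, 47 and 42 in KO-1 and 104, 111 and 101 in WT. The retention level is the share of retained reads after both kinds are divided by the number of positions at which they can fall. It was 28.9%, 17.6% and 28.3% in KO-1, against 12.3%, 4.33% and 6.94% in WT, so the groups did not overlap. The means were 24.9% ± 6.35 in KO-1 and 7.85% ± 4.05 in WT (SD, n = 3 libraries each). The log2 odds of retention were higher by 1.96 ± 0.41 (SE) in KO-1, with an adjusted p of 0.00128 in a quasi-binomial test moderated with limma, adjusted over all 18804 introns tested in that clone. The exact two-sided permutation test over these 6 libraries gave p = 0.1, the smallest it can give.

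In the other clones VPS16 intron 13 had intermediate levels. KO-4 libraries had 16.5%, 15.9% and 14.9%, all above the 3 WT libraries. KO-2 libraries had 15.7%, 15.2% and 12.1%, and the lowest of these lay just under the highest WT library. KO-3 libraries had 7.27%, 13.6% and 15.2% and overlapped WT more widely. The changes in log2 odds were 0.96 ± 0.38 for KO-2, 0.67 ± 0.40 for KO-3 and 1.14 ± 0.36 for KO-4 (SE), with limma-moderated adjusted p of 0.219, 0.726 and 0.072. The authors' deposited table gave adjusted p of 2.59e-06 for KO-1, 0.0457 for KO-2, 0.562 for KO-3 and 0.00661 for KO-4. A difference of this intron among the 4 clones missed the threshold (F = 4.79 over 12 libraries, limma-moderated adjusted p = 0.0526). Without the first-listed KO-1 library the KO-1 change was 1.80 with an adjusted p of 0.0576, and without the first-listed WT library the KO-4 change was 1.67 with an adjusted p of 0.0309. KO-1 was also the most shallowly sequenced group, with 17287797 to 20454252 junction reads per library, against 27092050 to 35348260 in the other clones and 28650487 to 34001726 in WT, and the part of depth in the result was not tested.

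Retained and spliced reads are also given separately. After scaling to a common depth, retained reads of intron 13 were 48.3, 27.5 and 52.9 in KO-1 and 27.8, 8.1 and 14.3 in WT, a ratio of means of 2.57. Scaled spliced reads were 59.6, 64.6 and 67.3 in KO-1 and 99.6, 89.9 and 96.1 in WT, a ratio of 0.671. The spliced reads of the groups did not overlap, and the retained reads met at the lowest KO-1 and the highest WT library. In KO-2 and KO-4 the ratio to WT was 1.97 and 2.21 for retained reads and 1.03 for spliced reads in both. These ratios are given as descriptions, without a test of their own.

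**Figure D1:**
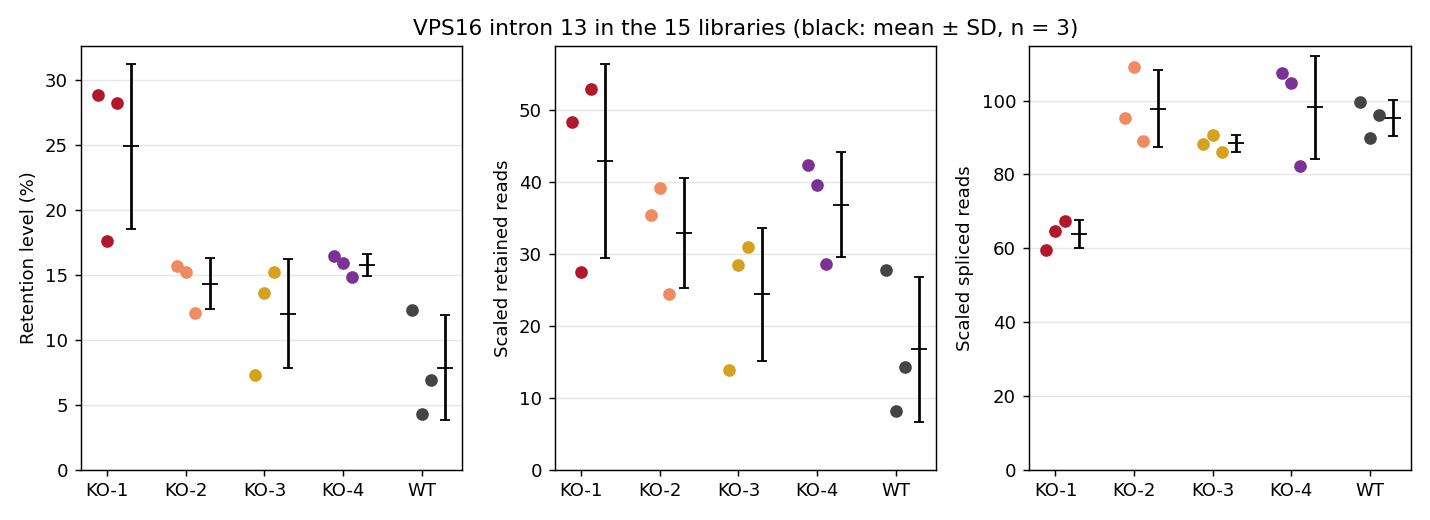
VPS16 intron 13 in each library (coloured points) of KO-1 to KO-4 and WT, with the mean and SD of 3 libraries in black. The left panel gives the retention level in percent, the middle and right panels give retained and spliced reads scaled to a common depth; KO-1 is highest in the left panel at 17.6% to 28.9% and lowest in the right panel at 59.6 to 67.3.

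Along VPS16, retention was unevenly spread in every group. Of its 23 introns listed for any clone, 19 were listed for all 4, and the median level of these 19 was 2.60% for KO-1, 1.67% for KO-2, 1.31% for KO-3, 3.06% for KO-4 and 1.61% for WT. Intron 12, just upstream, had the highest level of all, 39.7% ± 13.98 for KO-1, 23.8% ± 1.74 for KO-2, 20.6% ± 4.12 for KO-3, 27.4% ± 5.53 for KO-4 and 19.8% ± 1.22 for WT (SD, n = 3). Its KO-1 libraries stood at 38.0%, 26.6% and 54.4%, all above the WT libraries at 20.6%, 18.4% and 20.3%. The KO-1 change of intron 12, 1.22 ± 0.38 in log2 odds, had a limma-moderated adjusted p of 0.0957, and 0.0465 without the third-listed WT library.

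Introns 9 and 11 of VPS16 also had higher mean levels in the clones, but no change past the threshold where they were tested. Intron 9 stood at 10.5% ± 2.42 for KO-1, 7.69% ± 2.34 for KO-2, 7.60% ± 1.45 for KO-3, 8.01% ± 2.11 for KO-4 and 4.58% ± 0.594 for WT (SD, n = 3). Intron 11 stood at 8.49% ± 0.926 for KO-1, 7.27% ± 0.782 for KO-2, 7.22% ± 1.45 for KO-3, 9.30% ± 1.19 for KO-4 and 5.01% ± 2.23 for WT. Intron 14, on the other side of the short exon 14, had 28, 15 and 10 retained reads in KO-4 against 4, 6 and 3 in WT. Its change in KO-4 was 1.82 ± 0.61 with a limma-moderated adjusted p of 0.0613, and 0.00222 in the authors' deposited table. The read filter averaged clone and WT libraries together, so intron 14 entered the limma-moderated test only through its KO-4 reads. That p-value is therefore a description and no separate support. In the other clones intron 14 had too few retained reads to be tested and averaged 1.99% for KO-1, 1.87% for KO-2, 2.05% for KO-3 and 1.61% for WT. Intron 9 had 8 retained reads in each WT library. It likewise entered the test in KO-1, KO-2 and KO-4 only through the clone reads. In KO-3 intron 9 had too few retained reads to be tested, so its levels are descriptions and no separate support. Toward the 3′ end, the changes of intron 16 in log2 odds lay between -0.33 and 0.21 over the 4 clones, and those of intron 22 between -0.18 and 0.61. Those of intron 17, which is also assigned to PTPRA, ran from -0.24 in KO-2 to 0.65 in KO-3. Intron 17 averaged 13.4% in KO-3 against 8.75% in WT, and no change of it passed the threshold. The authors' tables assign 4 of the VPS16 introns also to PTPRA, and their reads could come from either gene.

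**Figure D2:**
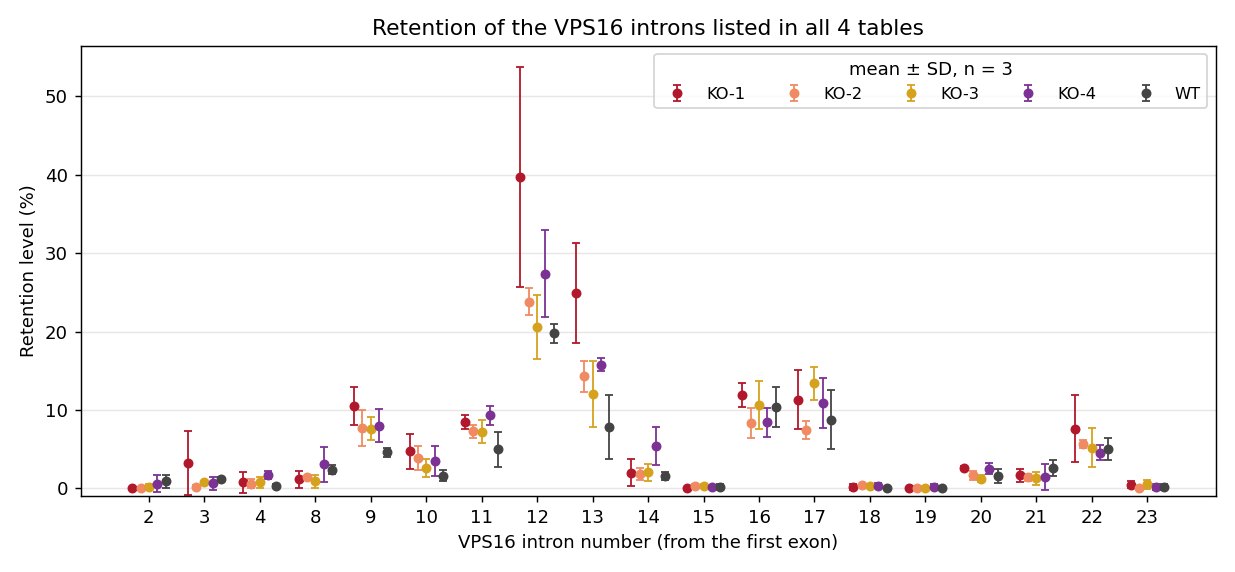
Retention level in percent (mean ± SD, 3 libraries) of the 19 VPS16 introns listed in all 4 tables, in order from the first exon, for KO-1 to KO-4 and WT. Intron 12 stands highest in all 5 groups, at 39.7% in KO-1 against 19.8% in WT; intron 13 is second in KO-1 at 24.9% and lies below introns 16 and 17 in WT at 7.85%, and introns 15, 18 and 19 lie near 0 in all 5 groups.

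Over all 7 genes, few introns had reads enough for a test. A test needed 10 or more retained and 10 or more spliced reads on average over the clone and WT libraries together. An intron could thus enter through the reads of 1 group alone. In KO-1 14 of 100 listed introns were tested, for KO-2 16 of 120, for KO-3 15 of 109 and for KO-4 18 of 116. VPS16 intron 13 in KO-1 was the 1 intron past the adjusted p threshold of 0.05 with higher retention, against 1.29% of all introns tested in that clone. In KO-2, KO-3 and KO-4 the limma-moderated test called 0 of the 7 genes' introns higher, against 1.3%, 0.558% and 1.54% of all introns. It called 0 lower in each clone, against 0.175%, 0.304%, 0.155% and 0.429% for KO-1 to KO-4. At an unadjusted p under 0.05, 5, 3, 2 and 4 of them were higher in KO-1 to KO-4, against 8.51%, 8.23%, 4.83% and 11% of all introns, and 0 were lower, against 2.31%, 3.62%, 3.42% and 2.81%. By the authors' deposited adjusted p, 1, 1, 0 and 3 listed introns of the 7 genes were higher in KO-1 to KO-4, against 0.637%, 0.834%, 0.37% and 1.13% of all listed introns, and 0 were lower, against 0.183%, 0.33%, 0.177% and 0.271%.

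The order of the libraries was also counted. All clone libraries lay above all WT libraries in 6 of 14 tested introns in KO-1, against 11.2% of all introns tested. The same held for 5 of 16 introns tested in KO-2 (10.4%), 1 of 15 for KO-3 (7.2%) and 6 of 18 for KO-4 (13.1%). All clone libraries lay below all WT libraries in 0 of 14 introns for KO-1 (4.43%), 1 of 16 for KO-2 (5.56%), 0 of 15 for KO-3 (5.75%) and 1 of 18 for KO-4 (4.47%). The median change in log2 odds was 0.64 for KO-1 against 0.13 over all introns, 0.34 for KO-2 against 0.10, 0.09 for KO-3 against 0.02, and 0.34 for KO-4 against 0.17. The 4 comparisons share their WT libraries, and neighbouring introns of 1 gene share their transcripts, so these counts are not independent of each other. The counts and medians also hold introns that passed the read filter through the clone where they were high, as VPS16 intron 14 in KO-4. The shares over all introns rest on the same filter, and its part in the counts was not tested, so they are descriptions. Of the 15 introns tested for a difference among the 4 clones, 0 passed the threshold, against 6.41% of all introns in that test.

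**Figure D3:**
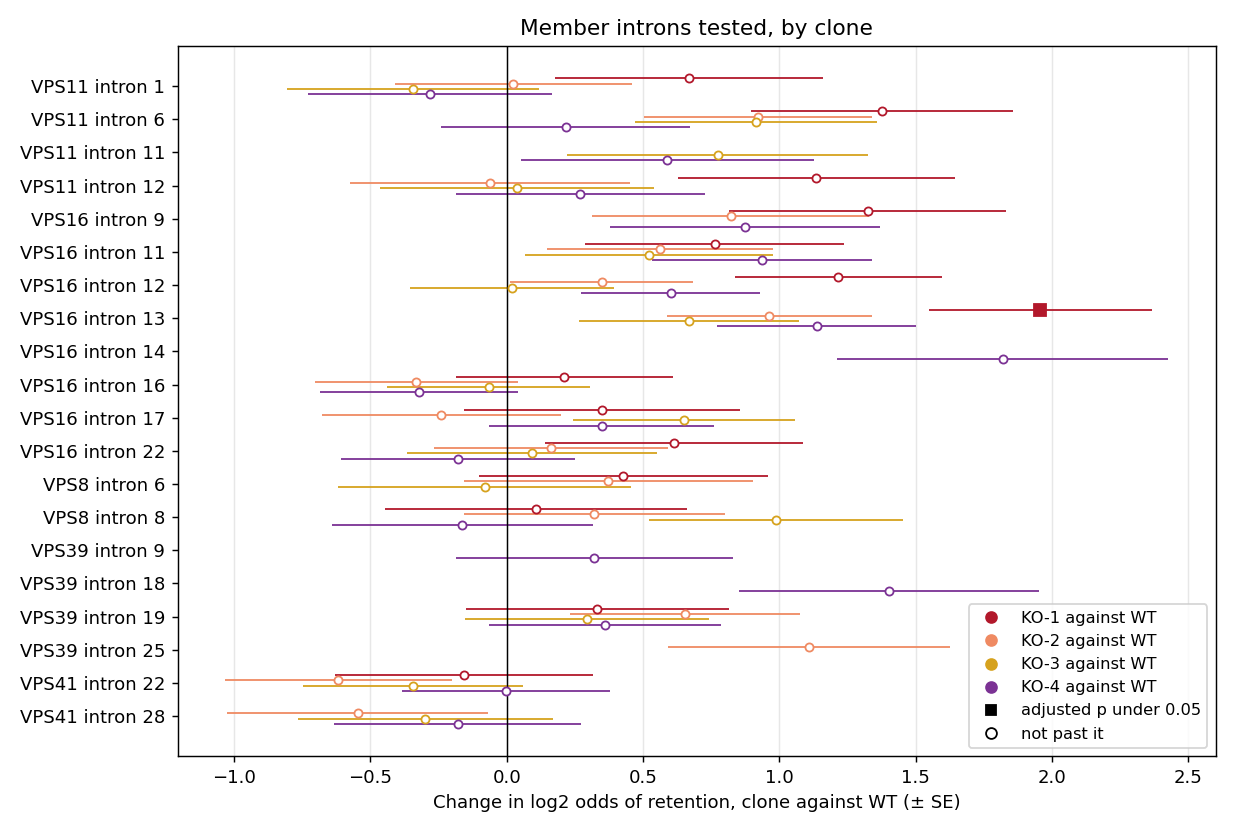
Change in log2 odds of retention (± SE) of each tested intron of the 7 genes, for each clone against WT. The 1 filled square is VPS16 intron 13 in KO-1 at 1.96; an intron is drawn only in clones where it had reads enough for a test, as VPS16 intron 14 had in KO-4 alone, and VPS41 introns 22 and 28 at or below 0.

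In VPS11, a core subunit, retention was highest at introns 1 and 6 and no change passed the threshold. Intron 6 with the GC start had levels of 25.8%, 22.9% and 29.7% in KO-1, against 11.9%, 12.4% and 10.2% in WT. KO-1, KO-2 and KO-3 libraries all lay above the WT libraries, and KO-4 overlapped them. The mean levels were 26.1% ± 3.45 for KO-1, 20.1% ± 6.45 for KO-2, 20.4% ± 3.89 for KO-3, 13.3% ± 7.28 for KO-4 and 11.5% ± 1.19 for WT (SD, n = 3). The change in KO-1, 1.38 ± 0.48 in log2 odds, had a limma-moderated adjusted p of 0.18. A GENCODE transcript of the retained-intron class, VPS11-202, spans this intron.

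The U12-type intron 1 of VPS11 was kept at 29.7% ± 11.7 for KO-1, 20.4% ± 5.81 for KO-2, 17.4% ± 4.39 for KO-3, 17.6% ± 2.10 for KO-4 and 20.4% ± 1.04 for WT (SD, n = 3). Its changes in log2 odds were 0.67 ± 0.49 for KO-1, 0.03 ± 0.44 for KO-2, -0.34 ± 0.46 for KO-3 and -0.28 ± 0.45 for KO-4 (SE). None of these 4 changes passed the threshold, with limma-moderated adjusted p of 0.678 to 0.992. Retained reads numbered 19, 9 and 16 in KO-1 and 20, 21 and 21 in WT. Exons of the transcript VPS11-206 overlap this intron, and reads from it could count as retained. Both ends of the intron could be read, so annotated exons cover them, and the part of other splice sites in its level was not tested.

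The subunits that belong to 1 complex had no retention change past the threshold. In VPS8, the CORVET subunit, intron 8 (chr3:184849196-184849935) had the smallest median adjusted p. It stood at 12.8% ± 4.77 for KO-1, 15.2% ± 1.00 for KO-2, 22.2% ± 6.17 for KO-3, 11.2% ± 4.54 for KO-4 and 12.9% ± 4.53 for WT (SD, n = 3), with a smallest limma-moderated adjusted p of 0.552 for KO-3. In VPS39, a HOPS subunit, it was intron 19 (chr15:42164487-42164995, minus strand), at 9.46% ± 4.18 for KO-1, 11.3% ± 1.97 for KO-2, 9.35% ± 2.30 for KO-3, 9.74% ± 4.18 for KO-4 and 7.62% ± 1.58 for WT. A GENCODE transcript of the retained-intron class, VPS39-205, spans introns 18 and 19 of VPS39, and an exon of VPS39-207 overlaps intron 19. The next intron upstream, VPS39 intron 18 (chr15:42165114-42165717), had 24, 13 and 22 retained reads in KO-4 against 6, 6 and 6 in WT. Its change of 1.40 ± 0.55 had a limma-moderated adjusted p of 0.163, and 0.0262 in the authors' deposited table. In KO-4 this intron, too, passed the read filter of the limma-moderated test only through the reads of that clone.

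VPS41, the other HOPS subunit, had a low median retention in each group. Its 14 introns listed for all clones had a median retention of 0.165% for KO-1, 0.284% for KO-2, 0.291% for KO-3, 0.203% for KO-4 and 0.237% for WT. Intron 22 (chr7:38745614-38752175, minus strand) had the highest level, 6.81% ± 1.998 for KO-1, 4.97% ± 1.43 for KO-2, 5.91% ± 1.33 for KO-3, 7.56% ± 2.88 for KO-4 and 7.70% ± 2.40 for WT (SD, n = 3). In VPS18 and VPS33A no intron had reads enough for a test. The 4 introns of VPS18 did not exceed a mean level of 3.07% in any group, and the 8 of VPS33A listed for all clones did not exceed 3.18%. Of the VPS33A introns, 9 of 11 are assigned also to the overlapping gene AC048338.1. For scale, the median over all 83066 introns listed for every clone was 1.48% for KO-1, 1.37% for KO-2, 1.31% for KO-3, 1.46% for KO-4 and 1.27% for WT.

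Spliced reads summed over a gene's introns served as a measure of its spliced transcripts. Only introns of 1 gene listed for all 4 clones were summed, counts were scaled to a common depth, and 8855 genes were tested with limma. Per intron, the WT mean ran from 58.8 scaled spliced reads for VPS11 to 115.1 for VPS41. In bulk RNA, fewer transcripts per cell and fewer cells expressing a gene cannot be told apart. In KO-1, VPS11, VPS16 and VPS41 fell and VPS18 and VPS39 rose, that is 3 of 7 lower against 12.5% of all genes and 2 of 7 higher against 13.5%. In KO-2 1 rose and 0 fell (background 21.7% higher and 20.9% lower), in KO-3 0 rose and 1 fell (15% and 15.8%), and in KO-4 2 rose and 0 fell (24.4% and 24.2%).

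VPS11 had the largest decrease among the 7 genes. Its scaled spliced reads were 462.7, 494.6 and 431.1 in KO-1, against 688.4, 651.9 and 599.6 in WT, and the groups did not overlap. The log2 change was -0.48 ± 0.08 (SE), a fold of 0.716, with a limma adjusted p of 0.000144. In the other clones the log2 changes of VPS11 were 0.00 for KO-2, -0.18 for KO-3 and -0.01 for KO-4, with limma adjusted p of 0.0969 to 0.986. VPS16 had 1223.4, 1412.4 and 1160.2 scaled spliced reads in KO-1, against 1640.1, 1464.9 and 1676.8 in WT, again without overlap. Its log2 change was -0.34 ± 0.07 with a limma adjusted p of 0.0017. In the other clones the log2 changes of VPS16 were 0.06 (KO-2), -0.18 (KO-3) and 0.08 (KO-4), with limma adjusted p of 0.54, 0.0699 and 0.359, and without the second-listed WT library the KO-3 value was -0.24 with a limma adjusted p of 0.034. Scaled by total spliced reads, VPS11 and VPS16 passed in KO-3 (-0.25 each, 0.0191 and 0.0133). Mean spliced reads of all 19 VPS16 introns were lower in KO-1, with a log2 ratio to WT from -0.68 at intron 4 to -0.08, and of -0.58 at intron 13 and -0.57 at intron 12.

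VPS18 passed the threshold in every clone, though not in 1 direction. Its scaled spliced reads were 384.6, 358.6 and 443.9 for KO-1, 381.2, 410.2 and 414.5 for KO-2, 244.8, 259.4 and 261.9 for KO-3, 385.5, 376.7 and 356.6 for KO-4, and 280.5, 332.0 and 325.5 for WT. The libraries of KO-1, KO-2 and KO-4 all lay above WT and those of KO-3 all below. The log2 changes were 0.34, 0.36, -0.29 and 0.26 in KO-1 to KO-4, with limma adjusted p of 0.0139, 0.00448, 0.0297 and 0.0343. In KO-1 the VPS18 call ended without the first-listed WT library (0.26, limma adjusted p = 0.0835) or the third-listed KO-1 library (0.25, 0.089). In KO-3 it ended without the second-listed (-0.24, 0.117) or third-listed WT library (-0.26, 0.0961) and without the first-listed (-0.26, 0.0939) or second-listed KO-3 library (-0.30, 0.0505), and also with the clone and WT alone in the fit (-0.29, 0.067). In KO-4 it ended without the first-listed WT library (0.18, 0.178) and without the first-listed (0.23, 0.102) or second-listed KO-4 library (0.25, 0.0816). The calls of VPS11 and VPS16 in KO-1 and of VPS18 in KO-2 held under all alternatives run for them.

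Among the subunits of 1 complex, VPS39 had 1459.0, 1460.5 and 1524.0 scaled spliced reads in KO-1, 1455.5, 1443.0 and 1446.9 in KO-4, and 1375.8, 1222.0 and 1247.6 in WT. Both clones lay above WT, with log2 changes of 0.21 ± 0.06 in KO-1 and 0.18 ± 0.06 in KO-4 and limma adjusted p of 0.0113 and 0.0161. The KO-1 call of VPS39 ended without the second-listed WT library (0.18, limma adjusted p = 0.0636), and the KO-4 call without the second-listed (0.14, 0.0841) or the third-listed one (0.16, 0.0545). VPS41 had 1395.1, 1422.0 and 1403.8 in KO-1 and 1581.7, 1612.3 and 1639.7 in WT, a log2 change of -0.20 ± 0.06 with a limma adjusted p of 0.0207. It ended without the second-listed WT library (-0.20, 0.0531), the third-listed WT library (-0.18, 0.0597) or the third-listed KO-1 library (-0.19, 0.0504). VPS8 passed in no clone (log2 changes from -0.09 to 0.17, limma adjusted p from 0.0703 to 0.439), and in KO-4 it reached 0.23 with 0.0279 without the third-listed WT library and 0.20 with 0.0423 when scaled by total spliced reads. VPS33A could be summed over 2 introns of its own and passed in no clone. With the introns it shares with AC048338.1, VPS33A was 0.24, 0.24 and 0.26 higher on the log2 scale in KO-2, KO-3 and KO-4 (limma adjusted p of 0.00745, 0.0133 and 0.00371), and those reads could come from either gene. With such shared introns summed for every gene, 2, 2, 1 and 3 of the 7 genes were higher in KO-1 to KO-4, against 13.7%, 21.9%, 15% and 24.6% of all genes, and 3, 0, 1 and 0 lower, against 12.5%, 21.1%, 15.6% and 24.2%.

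The 7 genes differed among the clones as often as most genes. A limma F test over the 4 clones called 6 of the 7, leaving out VPS33A, against 75.5% of all 8855 genes.

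**Figure D4:**
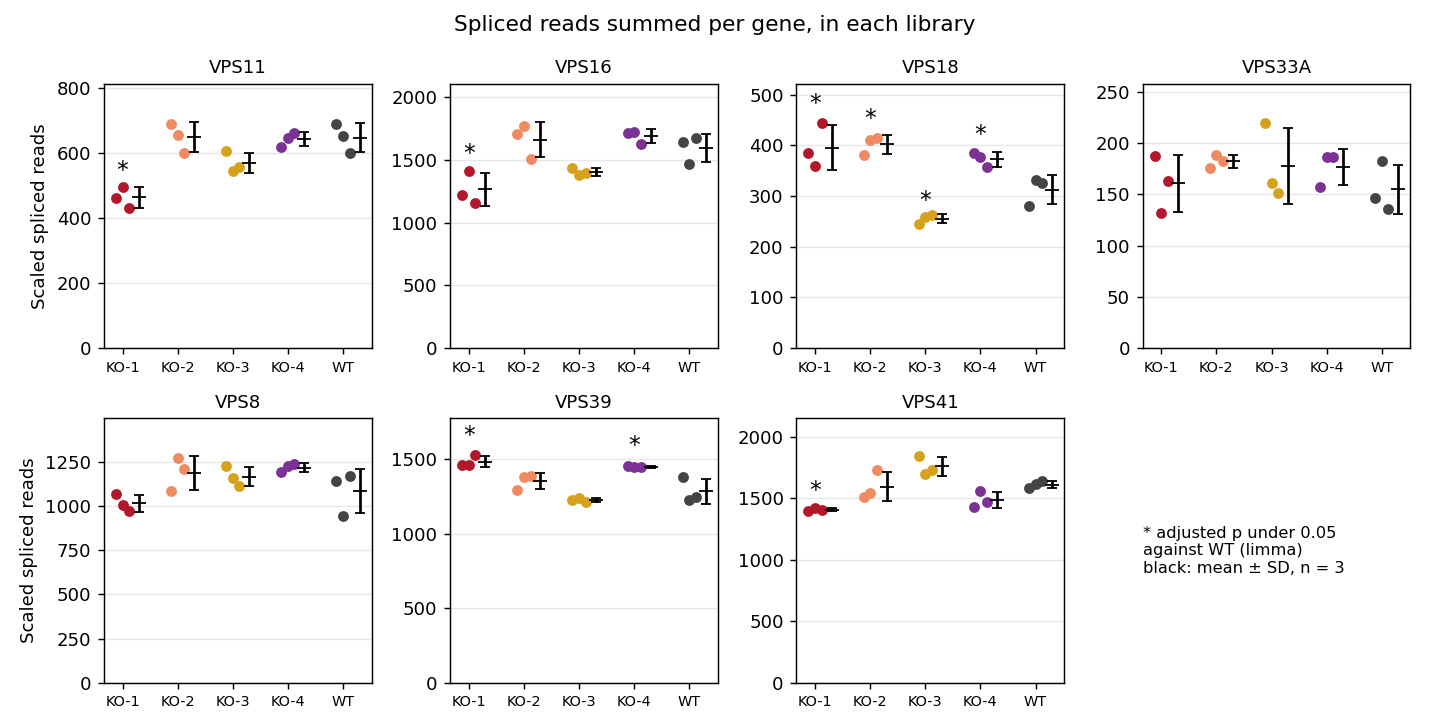
Spliced reads summed per gene and scaled to a common depth in each library of KO-1 to KO-4 and WT (coloured points), with the mean and SD of 3 libraries in black. Asterisks mark an adjusted p under 0.05 against WT; VPS11 and VPS16 are marked for KO-1, and VPS18 is above WT for KO-1, KO-2 and KO-4 and below it for KO-3.

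The other 26 genes of the pathway listed here had 11, 20, 17 and 19 introns tested in KO-1 to KO-4, and the limma-moderated test called 0 higher and 0 lower in each clone, against 1.29%, 1.3%, 0.558% and 1.54% of all introns higher and 0.175%, 0.304%, 0.155% and 0.429% lower. Of these genes, 23 could be tested for spliced reads. In KO-1 1 rose and 4 fell, against 13.5% of all genes higher and 12.5% lower. For KO-2 8 rose and 1 fell (21.7% and 20.9%), for KO-3 2 rose and 3 fell (15% and 15.8%), and for KO-4 4 rose and 3 fell (24.4% and 24.2%). The median log2 change over the 23 genes was -0.05 for KO-1, 0.14 for KO-2, 0.00 for KO-3 and 0.04 for KO-4, against medians within 0.003 of 0 over all genes. Without the first-listed KO-2 library 5 rose in KO-2. Without the third-listed WT or the second-listed KO-1 library 0 rose in KO-1, and without the second-listed WT, the first-listed KO-3 or the third-listed KO-3 library 1 rose in KO-3.

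Those that passed did so in both directions, and their changes are given on the log2 scale. Of the 4 Rab proteins, RAB5B was 0.40 higher for KO-2 and 0.38 higher for KO-4, RAB5C was 0.24 higher for KO-2, RAB7A, which HOPS binds, was lower for KO-4 (-0.17), and RAB5A passed in neither of these clones (limma adjusted p of 0.0742 and 0.485). RUBCN, an inhibitor of autophagosome and endosome maturation, rose by 0.69 in KO-2 and fell by 0.54 in KO-3. The HOPS partners RILP in KO-2 and PLEKHM1 in KO-4 rose by 0.31 and 0.30.

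Among the SNARE proteins, STX8 fell by 0.62 in KO-1 and 0.50 in KO-3 (limma adjusted p of 0.00251 and 0.0109), with 86.0 ± 1.67 and 93.5 ± 2.13 scaled spliced reads against 132.2 ± 7.62 in WT. VAMP8, a SNARE of lysosomal fusion, was 0.34 higher for KO-2 and 0.24 higher for KO-3, and STX17, the SNARE of autophagosomes, fell by 0.36 for KO-4. SNAP29, which pairs with STX17 on autophagosomes, rose by 0.26 in KO-1 and 0.27 in KO-2 (limma adjusted p of 0.0281 and 0.0117). STX7 rose by 0.31 in KO-4, and VTI1B fell by 0.24 in KO-1. TGFBRAP1, the second CORVET-specific subunit, fell by 0.42 in KO-3. VIPAS39, which pairs with the VPS33A paralogue VPS33B in the CHEVI complex, fell by 0.36 in KO-1 and rose by 0.28 in KO-3. CCZ1, part of the RAB7 exchange factor, fell by 0.23 in KO-1 and rose by 0.16 in KO-2, and its reads could be shared with the near-identical copy CCZ1B.

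Of the introns tested in all 4 comparisons (18064), those of other genes with the log2 odds of retention most like VPS16 intron 13 over the 15 libraries were in RCC1 with SNHG3 (r = 0.92), PPIL2 (0.91), MTOR (0.87), ARPC5L (0.86) and SMPD4 (0.86). The 15 libraries are 3 each of 5 groups that differ in depth, and are not independent points, so this is a description without a p-value. The MTOR intron (chr1:11127807-11128003) averaged 20.8% for KO-1, 12.2% for KO-2, 8.24% for KO-3, 14.1% for KO-4 and 7.0% for WT. The PPIL2 intron (chr22:21669963-21670565) stood at 17.2%, 10.4%, 5.79% and 9.13% on average in KO-1 to KO-4, and at 4.84% in WT.

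The line was checked by its markers. Of 5 epithelial markers, 4 (EPCAM, KRT8, KRT18 and KRT19) had listed introns, with a sum of 117264.6 to 125742.1 scaled spliced reads for KO-1, 119395.9 to 127140.8 for KO-2, 168831.4 to 177051.9 for KO-3, 130672.3 to 137363.0 for KO-4 and 113944.4 to 128420.7 for WT. Of 4 mesenchymal markers only FN1 had listed introns, at 728.1 to 971.1 for KO-1, 810.8 to 874.3 for KO-2, 678.3 to 726.9 for KO-3, 1435.8 to 2136.6 for KO-4 and 601.7 to 672.8 for WT, above every WT library in each clone, and of the 2 blood markers PTPRC and CD3E none had. CDH1, VIM, CDH2 and ZEB1 had no intron listed for all 4 clones, and an intron below the authors' filter cannot be told from an unexpressed gene. No 2 libraries held identical values.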

How the data were processed

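PolyA RNA was sequenced with a directional kit. The submitters' processing notes name cutadapt 2.0, STAR 2.7.1a and the hg38 build. The tool, filter and test used on the junctions were not given in the sources used here. Each deposited table sets 1 clone against WT, and the authors give retained and spliced junction counts in it as lists of 3 per group. The authors' deposited p-values, adjusted p-values and inclusion differences (a score from -1 to 1, clone minus WT) were used as named. The lowest sum of junction counts per intron and library was 20, so a filter had been applied. Lists carry no replicate number, and a library is called by its place in the list. Whether counting used strand is not stated, so antisense reads cannot be told apart.

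Counts of retained against spliced reads were fitted per intron by a quasi-binomial model, with a dispersion moderated by limma 3.58.1 in R 4.3.3 and not below 1. P-values were adjusted by Benjamini-Hochberg over all introns with means of at least 10 retained and 10 spliced reads. Spliced reads per gene (mean at least 50, log2 with 0.5 added, median-ratio scaling, 15 libraries) were tested with limma. A planned count model for gene sums was not run, and limma was used in its place. Both fits were tested on simulated data, and the outcome of that is not given here. Described in full are introns past the threshold in a clone, and for each other gene with a tested intron the one with the smallest median adjusted p. Of the pathway list no intron qualified, and the likeness rule took the 5 other genes with the highest correlation. Other VPS16, VPS11 and VPS39 introns, and the pathway genes named, were chosen after their values were seen. The members and lists were chosen with earlier results of these data known. Sequences and annotation come from GENCODE 29, in which 99.6% of the intron coordinates were found. The values of some pathway genes are not reported here. Alternatives are given at the end.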

Additional observations from a re-analysis of the deposited data

Results flagged for a closer look

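Spliced reads of 6 of the 7 genes differed among the 4 clones by a limma F test over the 12 clone libraries, which 75.5% of all genes passed. The adjusted p was 7.02e-06 for VPS18, 4.62e-05 for VPS11, 4.73e-05 for VPS16, 0.000397 for VPS41, 0.00108 for VPS39 and 0.0189 for VPS8. VPS18 was 0.34, 0.36 and 0.26 higher than WT on the log2 scale in KO-1, KO-2 and KO-4 and 0.29 lower in KO-3. VPS11 and VPS16 were lowest in KO-1, at a mean of 462.8 and 1265.3 scaled spliced reads, against 568.8 and 1405.2 in KO-3, the next lowest clone. VPS41 averaged 1407.0 in KO-1 and 1759.0 in KO-3, VPS39 1481.2 in KO-1 and 1224.6 in KO-3, and VPS8 1014.8 in KO-1 and 1216.7 in KO-4. Depth also differed among the clones, and its part in these differences was not tested.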

How the results depend on the processing

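Of 951 values recomputed, 811 kept their direction and their side of the threshold, or a count within 1.5 times. VPS16 intron 13 in KO-1 was called under each other test, centring and filter tried that left it in (adjusted p from 8.9e-05 to 0.0379) and by the authors' deposited adjusted p (2.59e-06), and its change without 1 library ranged from 1.63 to 2.49. It was lost without the first-listed KO-1 library (1.80). With at least 50 retained and 50 spliced reads it was not tested, so 0 member introns were higher in KO-1. By the authors' deposited adjusted p, 1 tested member intron was higher in KO-2 and 3 were in KO-4. Leaving out 1 library, 0 to 2 member introns were higher in KO-1 and 0 to 1 for KO-4. With the library at 1 list place left out of every clone at once, F for intron 13 among clones ranged from 1.87 to 5.30.

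Over all introns, 243, 307, 122 and 374 were higher and 33, 72, 34 and 104 lower in KO-1 to KO-4. limma on the log2 odds gave 120, 70, 42 and 47 higher, and 16, 7 and 20 lower in KO-2 to KO-4. Centring gave 147 higher in KO-1 and 143 in KO-4, and 66, 146 and 194 lower in KO-1, KO-2 and KO-4. No filter gave 52, 126 and 62 lower in KO-1 to KO-3. A minimum of 50 gave 73, 162, 49 and 216 higher, and 16 and 18 lower in KO-1 and KO-3. The authors' adjusted p gave 600, 222 and 786 higher in KO-2 to KO-4, and 90, 188, 92 and 159 lower in KO-1 to KO-4. Without 1 library, 97 to 522, 137 to 601, 60 to 209 and 149 to 1043 were higher, and 14 to 51, 45 to 92, 15 to 49 and 43 to 125 lower.

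For spliced reads, introns shared with another gene gave 2 member genes higher in KO-2 and 1 in KO-3. In KO-3, the clone and WT alone gave 0 member genes lower. Scaling by total spliced reads, chosen after seeing the data, shifted the KO-3 median by -0.07 and gave 3 lower there, 739 genes higher, 2114 lower and 1 pathway gene higher. Without 1 library, 1 to 2 member genes were higher in KO-1 and in KO-4, 0 to 1 lower in KO-3, and 0 to 1, 5 to 8 and 1 to 2 pathway genes higher in KO-1 to KO-3.

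Signs turned for values near 0. VPS8 intron 8 in KO-1 was -0.019 after centring and -0.31 to 0.28 without 1 library. VPS11 in KO-2 was 0, -0.001, -0.003 and -0.009 with no filter, shared introns, voom and total scaling, and -0.052 to 0.058 without 1 library. VPS11 in KO-4 was 0.013 with total scaling and -0.064 to 0.036 without 1 library. Leaving out 1 library also gave -0.15 to 0.69 for VPS11 intron 6 in KO-4, -0.11 to 0.54 and -0.054 to 0.65 for VPS39 intron 19 in KO-1 and KO-4, -0.42 to 0.083 and -0.20 to 0.32 for VPS41 intron 22 in KO-1 and KO-4, and -0.61 to 0.18 for VPS8 intron 8 in KO-4. For spliced reads it gave 0 to 0.13 for VPS16, -0.079 to 0.018 for VPS41 in KO-2, and -0.066 to 0.19 for VPS33A in KO-1. The cause of these moves was not tested, beyond fewer introns or libraries in the test.

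No paired analysis was possible because the lists carry no replicate numbers. The planned paired-column fit, the second count model and its size factors were not run. Depth limits the rest: introns with under 10 retained reads were not tested, and 3 libraries a group allow no exact p below 0.1.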
